A study of Homo sapiens with 18 samples.

Results

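The genes described here are 45 genes needed to build and maintain the primary cilium, chosen by name as parts of the machinery for intraflagellar transport, the BBSome, the transition zone and the basal body. All 45 listed genes were found in the table of 60483 genes, and in all 45 the mean level reached 1 TPM (a share of all transcripts, corrected for transcript length), so 0 were dropped. RNA was sequenced from OVCAR5, an established human cell line labelled as high grade ovarian serous adenocarcinoma and as wild type. All cells were kept for 24 h in medium with albumin free of fatty acids, in 6 conditions of 3 samples each. The controls received DMSO, the vehicle, or 1 µM CAY10566, an inhibitor of the desaturase SCD1, with no added fatty acid. The other samples received 50 µM stearate, a saturated fatty acid, or 50 µM oleate, the monounsaturated product of SCD1, each with DMSO or with 1 µM CAY10566. The labels do not say whether the 3 samples of a condition came from independent cultures, so p-values measure only the spread between these samples. All samples come from a single cell line, and in bulk RNA fewer cells expressing a gene and less RNA per cell cannot be told apart.

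The primary cilium is a single immotile antenna of microtubules that grows from the mother centriole, is covered by a specialised membrane and serves as a centre of Hedgehog signalling. Its parts are carried outwards by kinesin-driven trains of the intraflagellar transport complex B (IFT-B) and back by dynein-driven trains with complex A (IFT-A). The BBSome, a coat that rides on these trains, moves membrane receptors, the transition zone at the base acts as a gate, and distal appendage proteins of the basal body dock the centriole at the membrane. Cilia are taken down before mitosis, and ovarian surface and tubal epithelia are known to carry cilia while many carcinoma cells carry few.

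Levels were put on a log2(TPM + 1) scale, which understates the change of scarce genes, and fitted with limma for the 13789 genes whose mean reached 1 TPM, in 3 groups of 6 samples: control, stearate and oleate, each with 3 DMSO and 3 CAY10566 samples. A gene was called higher or lower at a Benjamini-Hochberg adjusted p under 0.05, and all adjusted p-values below are from this limma fit. Gene positions below are on GRCh38. TPM values keep no record of read depth, so only the spread between samples gives their precision. Samples of 1 condition correlated at 0.982 to 0.987 across genes, and samples of different conditions at 0.978 to 0.987. The library labelled CAY10566 replicate 3 stood apart from the other 5 controls: its median over all tested genes lay 0.025 above the gene means, while those of the others lay between -0.081 and -0.045. Its slope of level on log10 transcript length was 0.11, against -0.176 to -0.092 in the other controls, -0.091 to 0.099 with stearate and 0.003 to 0.17 with oleate. The cilium genes had a median transcript length of 4247 bases and a GC content of 41.6%, against 3459 bases and 48.4% for all tested genes, so they are longer and poorer in GC than most. The part of these length differences in the results was not tested beyond the correction given below. Of the carcinoma markers examined, EPCAM, an epithelial adhesion protein, averaged 331 TPM, keratin KRT8 895 TPM and the Müllerian factor PAX8 11.8 TPM, whereas WT1 (0.126 TPM) and MUC16 (0.632 TPM), both usual in serous carcinoma, were near 0. Of the 8 markers of other cell types, PTPRC (leukocytes, 0.00556 TPM), CD3E (0.025 TPM), COL3A1 (0.00889 TPM), VWF (0.0861 TPM) and PECAM1 (0.326 TPM) were near 0, while CD68, a lysosomal protein rich in macrophages, averaged 94.5 TPM, COL1A1 5.04 TPM and ACTA2 2.72 TPM.

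The cilium genes were expressed at modest levels. Their mean TPM over the 18 samples ran from 1.46 for BBS5 to 58.1 for IFT20, with a median of 9.93, below the median of 14.4 for all tested genes. IFT-B genes were the most abundant group by median (22.4 TPM), ahead of basal body genes (11.4 TPM), the motors (9.97 TPM), BBSome genes (9.3 TPM), transition zone genes (8.06 TPM) and IFT-A genes (6.74 TPM). TPM already divides by transcript length, so these levels can be set side by side. Within a complex the levels were uneven: in IFT-A, IFT43 measured 50.2 TPM while IFT140 measured 5.18 TPM, and in the dynein motor the light intermediate chain DYNC2LI1 measured 12.9 TPM while the heavy chain DYNC2H1 measured 2.99 TPM. The subunits of the kinesin were uneven as well, with KIF3B at 23.2 TPM, KIFAP3 at 9.97 TPM and KIF3A at 5.73 TPM.

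Promoter sequences are shown because many ciliary genes are known to be controlled by RFX transcription factors, which bind the X-box, a near-palindrome of a pair of core motifs around a short spacer. RefSeq (GRCh38.p14) gave promoters of 300 bases, from 250 before the start of transcription to 50 after it, for 40 of the 45 genes (49 promoters). The core motif GTTGCC, searched on both strands and allowed to lie within an X-box, was present in 21 of these 49 promoters (42.9%), against 12.2% of all 35116 promoters and 12.7% of those of tested genes. A full X-box with a spacer of 0 to 3 bases was present in 4 of the 49 (8.16%), those of IFT122, IFT57, TCTN1 and B9D1, against 1.31% of all promoters. Either motif was found for 8 of the 14 genes that passed the test for stearate against control and for 12 of the other 26 with a promoter. The motif was chosen with the gene list in view, and a match describes letters, not a bound site. The stretches below are from genes that passed that test. Capitals mark the X-box in IFT122 and B9D1 and the core motif, or its reverse complement GGCAAC, in the others. IFT122, DYNC2LI1, TTC8 and IFT46 were higher with stearate, while B9D1 and TMEM231 were lower, so the motif was found in genes that moved either way. Position 1 is the first transcribed base, and the motif lies from -12 to 3 in IFT122, from -193 to -180 in B9D1, from -8 to -3 in DYNC2LI1, from -34 to -29 in TTC8, from -196 to -191 in IFT46 and from -17 to -12 in TMEM231, which has a further copy upstream in the stretch shown. B9D1, TTC8 and TMEM231 each had 2 promoters in RefSeq: positions refer to the start used here, the other promoter of B9D1 and of TTC8 held no match, and from the other start of TMEM231 a match lies from -6 to -1.
IFT122, chr3:129440162-129440233, + strand: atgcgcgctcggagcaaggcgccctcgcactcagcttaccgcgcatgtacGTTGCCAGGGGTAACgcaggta
B9D1, chr17:19378043-19378156, - strand: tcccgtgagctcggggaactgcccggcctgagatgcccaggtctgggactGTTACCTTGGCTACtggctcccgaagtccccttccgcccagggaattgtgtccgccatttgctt
DYNC2LI1, chr2:43773981-43774048, + strand: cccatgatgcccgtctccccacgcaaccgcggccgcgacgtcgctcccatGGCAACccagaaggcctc
TTC8, chr14:88824567-88824660, + strand: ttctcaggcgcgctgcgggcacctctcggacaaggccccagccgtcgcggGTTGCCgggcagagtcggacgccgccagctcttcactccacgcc
IFT46, chr11:118566072-118566177, - strand: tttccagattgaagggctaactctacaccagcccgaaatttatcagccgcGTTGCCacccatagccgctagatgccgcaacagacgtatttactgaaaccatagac
TMEM231, chr16:75556243-75556319, - strand: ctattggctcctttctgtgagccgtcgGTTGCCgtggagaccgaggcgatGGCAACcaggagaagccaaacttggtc

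Stearate against control asks what 24 h of the saturated fatty acid did to these genes. Of the 45, 12 were higher with stearate, 2 were lower and 31 did not pass the test. The genes that rose were 4 of the 5 motor genes, 5 of the 9 BBSome genes, 2 of the 11 IFT-B genes and 1 of the 6 IFT-A genes, whereas both genes that fell, B9D1 and TMEM231, belong to the transition zone. Among all tested genes 13.5% were called higher and 5.97% lower, so the share of cilium genes called higher (26.7%) was above the background and the share called lower (4.44%) was near it. The changes were small: log2 fold changes ran from -0.22 for B9D1 to 0.51 for ARL6, and 2 genes, ARL6 and KIF3A, were called with a change of over 0.32 on the log2 scale, as were 5.35% of all tested genes. Positive values were seen for 40 of the 45 (88.9%), against 66.1% of all tested genes, with medians of 0.17 and 0.06. After rescaling by size factors 36 were positive with a median of 0.117 (all tested genes: 0.007), and with each sample's trend on length and GC removed 31 were positive with a median of 0.058 (all tested genes: 0.003). A total of 22 of the 45 (48.9%) had an unadjusted p under 0.05, as did 33.8% of all tested genes.

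**Figure D1:**
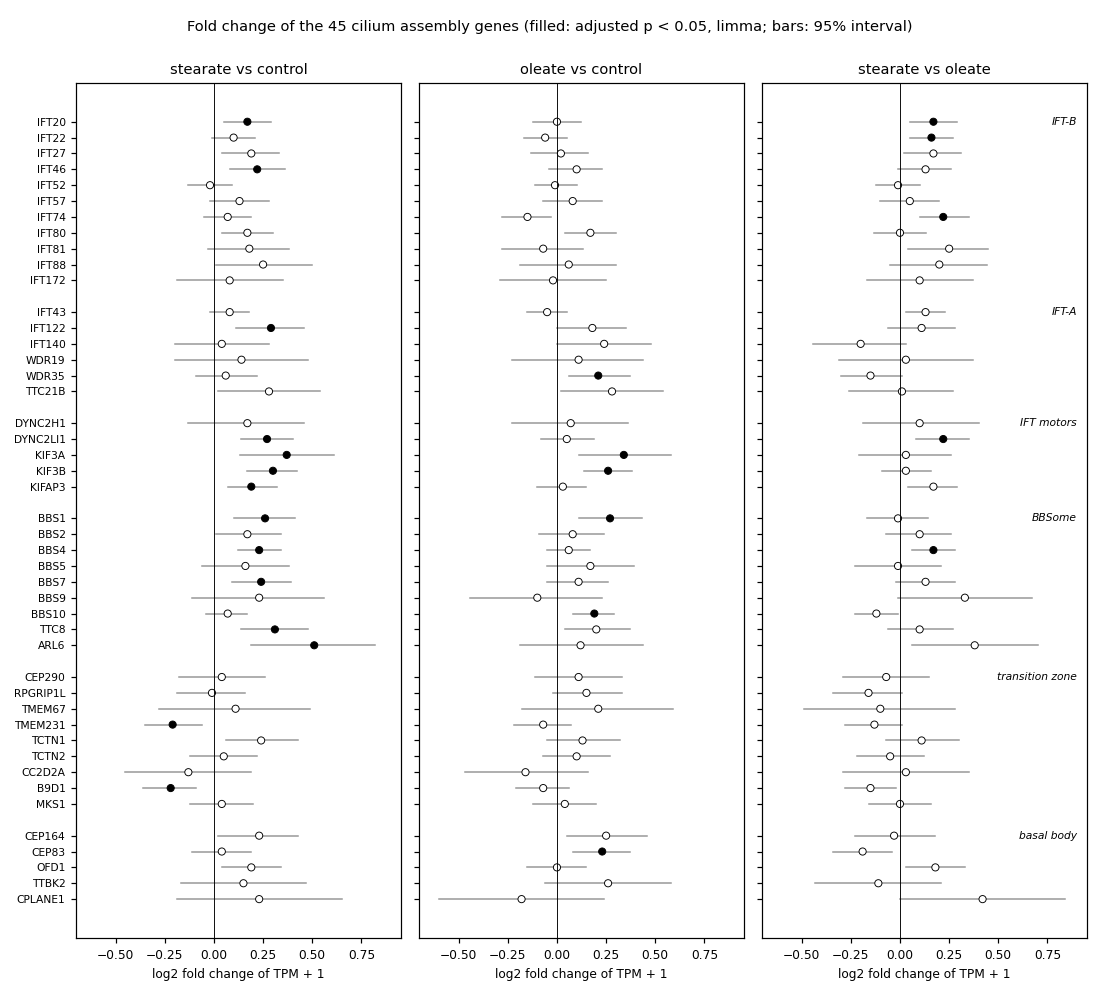
Log2 fold change of TPM + 1 (horizontal axis) for each of the 45 genes, ordered by complex, in stearate against control, oleate against control and stearate against oleate. Points are estimates, bars 95% intervals and filled points adjusted p under 0.05 (limma): 14 points are filled in the left panel, 6 in the middle and 5 in the right, and both filled points left of 0 are transition zone genes in the left panel.

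Of the 5 motor genes, 4 were higher, and all 5 had positive values, from 0.17 to 0.37 on the log2 scale. KIF3B, which encodes a motor subunit of the kinesin that drives IFT-B trains outwards (ENSG00000101350, chromosome 20, 32277651 to 32335011), measured from 18.1 to 24.3 TPM in the controls (median 19.8), from 23.6 to 27.5 TPM with stearate (median 24.4) and from 22.4 to 25.9 TPM with oleate (median 24.3). Its groups overlapped only through CAY10566 replicate 3, the highest control, and the next control lay below every sample with a fatty acid. The mean was 20.2 ± 2.11 TPM in the controls and 25 ± 1.47 TPM with stearate (SD, n = 6), and the log2 fold change was 0.30 with a standard error (SE) of 0.058 (limma, adjusted p = 0.00176). KIF3A, the partner motor subunit (ENSG00000131437, chromosome 5, 132692628 to 132737638), measured from 3.88 to 5.29 TPM in the controls (median 4.7) and from 5.52 to 8.21 TPM with stearate (median 5.86), so the groups did not overlap. Its log2 fold change was 0.37 (SE 0.113, adjusted p = 0.0281), and without stearate+DMSO replicate 1, its highest sample, it did not pass (adjusted p = 0.0735). The adaptor of the same kinesin, KIFAP3, rose from 9.39 ± 0.407 to 10.9 ± 0.916 TPM (log2 fold change 0.19, adjusted p = 0.0278).

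DYNC2LI1, the light intermediate chain of the dynein that returns trains to the base (ENSG00000138036, chromosome 2, 43774039 to 43810010), measured from 10.5 to 13.3 TPM in the controls (median 11.9) and from 13.2 to 15.4 TPM with stearate (median 14.8). A total of 5 of the 6 stearate samples lay above every control. The log2 fold change was 0.27 (SE 0.063, adjusted p = 0.0058). The heavy chain, DYNC2H1, the remaining motor gene, measured 2.75 ± 0.478 TPM in the controls and 3.24 ± 0.742 TPM with stearate (log2 fold change 0.17, adjusted p = 0.429).

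All 9 BBSome genes had positive values with stearate, from 0.07 for BBS10 to 0.51 for ARL6 on the log2 scale. BBS4, a core subunit (ENSG00000140463, chromosome 15, 72686179 to 72738475), measured from 22.1 to 25 TPM in the controls (median 24) and from 24.2 to 30.1 TPM with stearate (median 28.7). Only stearate+CAY10566 replicate 2, at 24.2 TPM, lay within the control range. The log2 fold change was 0.23 (SE 0.052, adjusted p = 0.00479). TTC8, another subunit of the coat (ENSG00000165533, chromosome 14, 88824153 to 88881078), ran from 18.8 to 24.8 TPM in the controls (median 21.8) and from 24.2 to 29.9 TPM with stearate (median 27), a log2 fold change of 0.31 (SE 0.08, adjusted p = 0.0109). The lowest stearate sample of TTC8 lay just under the highest control, DMSO replicate 3.

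BBS1, the subunit that binds the GTPase ARL6 on the membrane, rose from 8.1 ± 0.818 to 9.82 ± 0.271 TPM (log2 fold change 0.26, adjusted p = 0.0232), with every stearate sample above every control. ARL6 itself, the GTPase that recruits the BBSome, was scarce, at 2.17 ± 0.734 TPM in the controls and 3.44 ± 0.638 TPM with stearate (log2 fold change 0.51, SE 0.152, adjusted p = 0.0254). BBS7 rose by 0.24 (adjusted p = 0.0267), with a single stearate sample at 42.3 TPM where the others were at 27.2 to 32.4 TPM, and it was still called without that sample. Other samples ended some of these calls: BBS1 and BBS7 were lost without CAY10566 replicate 2 (adjusted p = 0.0594 and 0.0631) and ARL6 without DMSO replicate 2 (adjusted p = 0.0609). BBS2, BBS5, BBS9 and BBS10 did not pass, with log2 fold changes of 0.17, 0.16, 0.23 and 0.07.

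**Figure D2:**
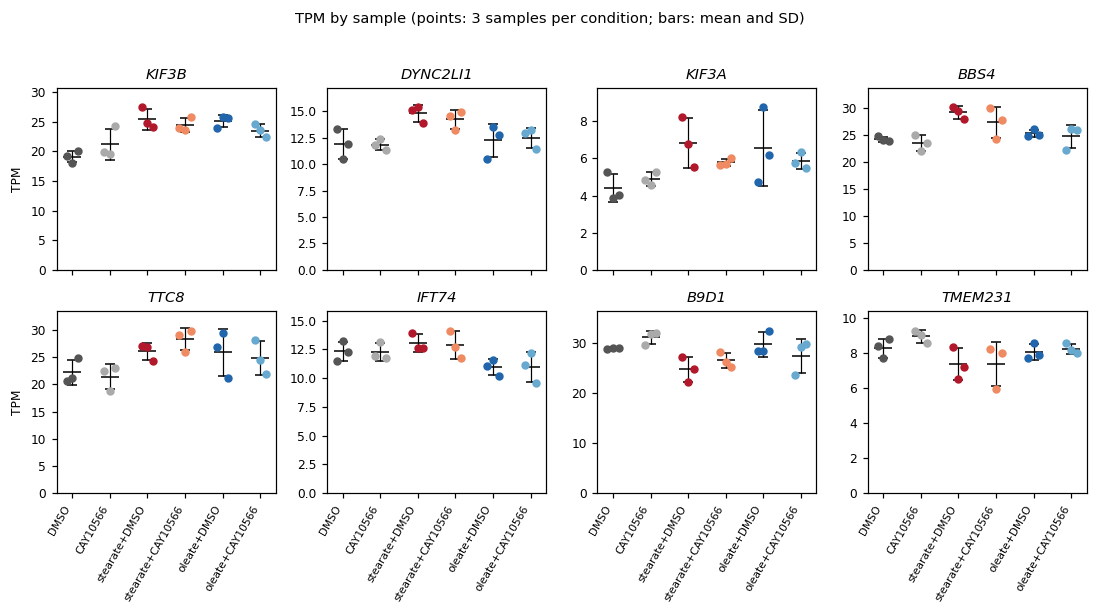
TPM (vertical axes, from 0) of 8 of the genes in each sample, by condition, with the mean and SD of the 3 samples as bars. KIF3B, DYNC2LI1, BBS4 and TTC8 sit higher in the stearate samples than in most controls, B9D1 and TMEM231 lower, and IFT74 is lowest in the oleate samples.

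In the transport complexes fewer genes passed. IFT46, an IFT-B subunit that carries axonemal dynein cargo in motile cilia (ENSG00000118096, chromosome 11, 118544528 to 118572970), ran from 15.2 to 17.1 TPM in the controls (median 15.8) and from 16.6 to 20 TPM with stearate (median 19.5), a log2 fold change of 0.22 (SE 0.066, adjusted p = 0.0238). IFT20, the IFT-B subunit that also sits on the Golgi (ENSG00000109083, chromosome 17, 28328325 to 28335489), ran from 49.6 to 61.6 TPM in the controls (median 56.2) and from 58.8 to 67.8 TPM with stearate (median 61.4), a log2 fold change of 0.17 (SE 0.058, adjusted p = 0.0427). Its groups overlapped widely, since the 3 DMSO controls averaged 59.6 TPM and the 3 CAY10566 controls 51.8 TPM, and the log2 difference with stearate was 0.08 within DMSO and 0.27 within CAY10566. The other 9 IFT-B genes ran from -0.02 for IFT52 to 0.25 for IFT88 and did not pass. Among them were IFT27, the small GTPase that links IFT-B to the BBSome (0.19, adjusted p = 0.0681), and IFT80 (0.17, adjusted p = 0.0657).

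IFT122, a core IFT-A subunit (ENSG00000163913, chromosome 3, 129429607 to 129520510), was the IFT-A gene that passed: it ran from 4.7 to 6.39 TPM in the controls (median 5.71) and from 6.15 to 8.75 TPM with stearate (median 6.84), a log2 fold change of 0.29 (SE 0.083, adjusted p = 0.0208). TTC21B, the IFT-A subunit with the next smallest adjusted p, ran from 5.7 to 7.12 TPM in the controls (median 6.26) and from 5.99 to 9.87 TPM with stearate (median 7.74). Although 5 of its 6 stearate samples exceeded every control, it did not pass (log2 fold change 0.28, SE 0.124, adjusted p = 0.115). IFT43, IFT140, WDR19 and WDR35 lay between 0.04 and 0.14.

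Of the 9 transition zone genes, 2 were lower and 0 higher, with 5 of the 9 at positive values. B9D1, a core component of the gate (ENSG00000108641, chromosome 17, 19334308 to 19378193), ran from 28.8 to 32.2 TPM in the controls (median 29.4) and from 22.3 to 28.2 TPM with stearate (median 25.8). Every stearate sample lay below every control, as for 3.09% of all tested genes, and the log2 fold change was -0.22 (SE 0.064, adjusted p = 0.0198). TMEM231, a membrane protein of the same gate complex (ENSG00000205084, chromosome 16, 75536741 to 75556289), ran from 7.71 to 9.29 TPM in the controls (median 8.66) and from 5.96 to 8.33 TPM with stearate (median 7.6), a log2 fold change of -0.21 (SE 0.07, adjusted p = 0.0448). The other 7 genes of the group did not pass and ran from -0.13 for CC2D2A to 0.24 for TCTN1 (adjusted p = 0.0589). The median of the group was 0.04, and it changed sign to -0.015 when TPM were rescaled by size factors and to -0.112 when each sample's trend on length and GC was removed. B9D1 and TMEM231 were called lower in both of these fits.

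Of the 5 basal body genes, 0 passed, and 2 had an unadjusted p under 0.05. These were OFD1, which sits at the distal end of the centriole, from 10.2 to 11.5 TPM in the controls (median 10.9) and from 10.6 to 14.2 TPM with stearate (median 12.5; log2 fold change 0.19, SE 0.072, adjusted p = 0.0745), and CEP164, a distal appendage protein, at 10.8 ± 1.23 and 12.9 ± 2.03 TPM (log2 fold change 0.23, SE 0.099, adjusted p = 0.114). TTBK2, the kinase that starts cilium growth, and CPLANE1 were low and variable, at 2.76 ± 1.2 and 1.89 ± 0.8 TPM in the controls, with log2 fold changes of 0.15 and 0.23. The control spread of TTBK2 came mostly from CAY10566 replicate 3 (5.18 TPM, against 2.16 to 2.65 TPM in the others), and without that library TTBK2 was called higher with stearate (0.31, adjusted p = 0.0496) and with oleate (0.41, adjusted p = 0.00762). Of the 18 fits that left out 1 sample, it was called in 1 for each fatty acid.

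Groups that did not overlap between stearate and control were seen for 3 of the 45: KIF3A and BBS1 higher and B9D1 lower, against 4.7% of all tested genes higher and 3.09% lower. KIF3B, DYNC2LI1, BBS4 and TTC8 were called in each of the 18 fits that left out 1 sample, B9D1 in 17, and the other 9 called genes in 6 to 16. Their highest adjusted p came without stearate+DMSO replicate 1 for IFT46 (0.0541) and IFT122 (0.054), without stearate+DMSO replicate 2 for IFT20 (0.0996), TMEM231 (0.105) and B9D1 (0.052), and without CAY10566 replicate 2 for KIFAP3 (0.0602). The count of 14 was 7 without CAY10566 replicate 2 (6 higher and 1 lower, against 9.9% and 5.17% of all tested genes). Without stearate+DMSO replicate 1 it was 8 (6 and 2, against 9.29% and 5.25%). Without stearate+DMSO replicate 2 it was 9 (9 and 0, against 9.82% and 5.34%). Without CAY10566 replicate 3 it was 15 (13 and 2, against 20.3% and 6.53%). Rescaling by size factors left 7 genes higher and 2 lower, against 7.92% and 10.2% of all tested genes, and removing the length and GC trends left 6 higher and 2 lower (7.69% and 10.3%). DYNC2LI1, KIF3B, BBS4, IFT122, B9D1 and TMEM231 were called in both.

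Oleate against control used the same control samples, so its values are not independent of those for stearate. Of the 45 genes, 6 were higher and 0 lower. At an unadjusted p under 0.05, 12 were higher and 1 lower (28.9% together, against 38% of all tested genes). Among all tested genes 23% were called higher and 2.7% lower, so the share of cilium genes called higher, 13.3%, was below the background, and 1 of the 45, KIF3A, was called with a change of over 0.32 on the log2 scale, against 6.9% of all tested genes. The median of the cilium genes was 0.1 and that of all tested genes 0.09. The genes called were WDR35 in IFT-A, KIF3A and KIF3B among the motors, BBS1 and BBS10 in the BBSome and CEP83 at the basal body.

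KIF3B rose to 24.3 ± 1.33 TPM with oleate (log2 fold change 0.26, SE 0.058, adjusted p = 0.00478), close to its level with stearate. BBS10, a chaperonin-like protein that helps to assemble the BBSome (ENSG00000179941, chromosome 12, 76344474 to 76348415), ran from 8.36 to 9.03 TPM in the controls (median 8.64) and from 8.98 to 10.7 TPM with oleate (median 10.2), a log2 fold change of 0.19 (SE 0.051, adjusted p = 0.0137). BBS1 rose by 0.27 (adjusted p = 0.0151). KIF3A rose by 0.34 (adjusted p = 0.0329) and lost its call without oleate+DMSO replicate 2, its highest sample at 8.76 TPM (adjusted p = 0.0824).

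WDR35, an IFT-A subunit (ENSG00000118965, chromosome 2, 19910263 to 19990105), ran from 5.53 to 8.22 TPM in the controls (median 6.26) and from 7.41 to 8.05 TPM with oleate (median 7.64), a log2 fold change of 0.21 (SE 0.074, adjusted p = 0.0414). Its oleate samples lay above every control but CAY10566 replicate 3, and without that control the adjusted p was the lowest of its fits at 0.00295, while without DMSO replicate 2 it was 0.106. CEP83, which anchors the distal appendages (ENSG00000173588, chromosome 12, 94306449 to 94459988), ran from 10.5 to 12.4 TPM in the controls (median 11.3) and from 11.7 to 16.2 TPM with oleate (median 13.3), a log2 fold change of 0.23 (SE 0.071, adjusted p = 0.0266). The oleate+DMSO samples, at 14.2, 15.2 and 16.2 TPM, were the highest of the 18, while oleate+CAY10566 measured 11.7, 12.4 and 11.9 TPM. Without oleate+DMSO replicate 3 the adjusted p of CEP83 was 0.0692. The other IFT-A genes did not pass, with log2 fold changes from -0.05 for IFT43 to 0.28 for TTC21B (adjusted p = 0.108).

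No IFT-B gene was called with oleate (0 of 11, with 2 at an unadjusted p under 0.05), and the median of the group was 0.004. IFT80 had the smallest adjusted p, with 21.6 to 29.3 TPM in the controls (median 24.6) and 26.4 to 29.7 TPM with oleate (median 28.2; log2 fold change 0.17, SE 0.062, adjusted p = 0.0535). IFT74 had a negative value (-0.15, adjusted p = 0.0603) and was called lower without CAY10566 replicate 3, without oleate+CAY10566 replicate 2 and with the replicate number as a block. Of the transition zone genes 0 of 9 were called and 0 had an unadjusted p under 0.05, and RPGRIP1L, a scaffold of the gate, had the smallest adjusted p: 5.17 to 7.17 TPM in the controls (median 6.3) and 6.19 to 7.6 TPM with oleate (median 7.05; log2 fold change 0.15, SE 0.084, adjusted p = 0.19).

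The calls for oleate depended on scaling. With TPM rescaled by size factors, KIF3B was the only gene called higher and IFT22, IFT74 and IFT43 were called lower, against 9.07% and 9.12% of all tested genes. With the length and GC trends removed 0 were higher and IFT22 and IFT74 were lower, against 5.5% and 6.31%. The IFT-B median became -0.094 and -0.026 in these fits and the motor median -0.008 and -0.021, so no direction is given for these groups with oleate. Leaving out CAY10566 replicate 3 raised the count from 6 to 10 (9 higher and 1 lower), against 30.1% and 4.11% of all tested genes. It fell to 3, all higher, without CAY10566 replicate 2 (all tested genes: 17.7% and 2.18%) or oleate+DMSO replicate 2 (16.8% and 1.86%).

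**Figure D3:**
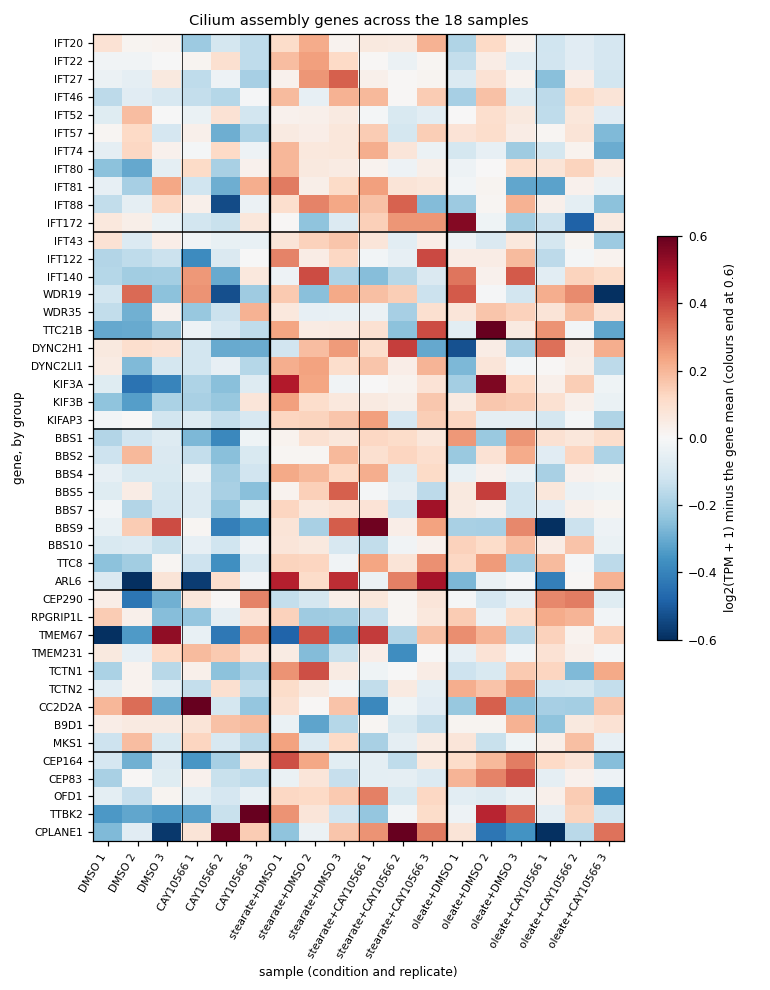
Colour shows log2(TPM + 1) minus the gene's mean over the 18 samples (colours end at 0.6), with genes in rows by complex and samples in columns by condition. Motor and BBSome rows tend to blue in the controls and to red in the stearate samples, with exceptions in single samples of most rows, the B9D1 row is the reverse in paler shades, and scarce genes such as TMEM67, CC2D2A and CPLANE1 vary within conditions.

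Stearate against oleate compared the saturated fatty acid with its product at the same dose of 50 µM and the same time of 24 h. Of the 45 genes, 5 were higher with stearate than with oleate and 0 were lower, while 6.85% of all tested genes were called higher and 14.3% lower. Of these 5, 0 differed by over 0.32 on the log2 scale (the largest difference was 0.22), against 6.37% of all tested genes called past that limit. The 5 were IFT20, IFT22 and IFT74 in IFT-B, DYNC2LI1 among the motors and BBS4 in the BBSome. The median difference of the 45 was 0.05 and that of all tested genes -0.03, and 28 of the 45 (62.2%) were positive, against 41.3% of all tested genes.

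IFT74, which binds tubulin together with IFT81 (ENSG00000096872, chromosome 9, 26947039 to 27066134), ran from 11.7 to 14.1 TPM with stearate (median 12.7) and from 9.6 to 12.2 TPM with oleate (median 11.1), a log2 difference of 0.22 (SE 0.059, adjusted p = 0.011). The controls, at 11.5 to 13.2 TPM (median 12.1), lay between, and neither comparison with them passed (adjusted p = 0.433 for stearate and 0.0603 for oleate). Its partner IFT81 was higher in every stearate sample (4.39 to 5.51 TPM) than in any oleate sample (3.21 to 4.35 TPM), but it did not pass (log2 difference 0.25, adjusted p = 0.0785). It was the only one of the 45 whose groups did not overlap here, against 2.94% of all tested genes higher and 7.28% lower.

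DYNC2LI1 differed by 0.22 (SE 0.063, adjusted p = 0.0198), with oleate samples from 10.5 to 13.6 TPM (median 12.8) and a log2 difference of 0.05 between oleate and control (95% interval -0.08 to 0.19). BBS4 differed by 0.17 (SE 0.052, adjusted p = 0.028), with oleate samples from 22.3 to 26.1 TPM (median 25.4). IFT22, a small GTPase of IFT-B, differed by 0.16 (adjusted p = 0.0332) and IFT20 by 0.17 (adjusted p = 0.0451).

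Genes that passed with both fatty acids against control did not pass between them: KIF3B differed by 0.03 (95% interval -0.09 to 0.16), KIF3A by 0.03 (-0.21 to 0.26) and BBS1 by -0.01 (-0.17 to 0.14). With length and GC trends removed, KIF3B was called higher with stearate than with oleate (0.11, adjusted p = 0.0211) and lost its call for oleate against control (0.09, adjusted p = 0.0742). The genes with the smallest adjusted p in the groups without a call were IFT43 in IFT-A (52.7 ± 3 TPM with stearate and 48.1 ± 3.37 TPM with oleate, log2 difference 0.13, SE 0.048, adjusted p = 0.0563), CEP83 at the basal body (-0.19, SE 0.071, adjusted p = 0.0672) and B9D1 in the transition zone (-0.15, SE 0.064, adjusted p = 0.106). B9D1 and TMEM231, which were lower with stearate than in the controls, did not pass between stearate and oleate (TMEM231: -0.13, adjusted p = 0.184), but B9D1 was called lower with stearate without oleate+CAY10566 replicate 1 (adjusted p = 0.0163).

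CEP83 was called lower with stearate than with oleate in the DMSO samples alone, with CAY10566 as a covariate and in 2 of the 18 fits that left out 1 sample. Rescaling by size factors raised the count from 5 to 10, all higher with stearate (all tested genes: 10.4% higher and 11.5% lower), and removing length and GC trends gave 9 higher and 1 lower (10.7% and 12.1%). Of the 5, IFT22, IFT74, DYNC2LI1 and BBS4 were called in both. The count was 2, both higher, without stearate+DMSO replicate 1 (all tested genes: 5.9% higher and 15.3% lower) or stearate+DMSO replicate 2 (5.49% and 12.9%). It was 3, all higher, without stearate+CAY10566 replicate 1 (6.03% and 11.1%). IFT74 and DYNC2LI1 were called in each of the 18 fits that left out 1 sample, BBS4 in 14, IFT22 in 10 and IFT20 in 8. The highest adjusted p was 0.0697 for BBS4 (without oleate+CAY10566 replicate 1), 0.0818 for IFT22 (without stearate+DMSO replicate 2) and 0.1 for IFT20 (without oleate+DMSO replicate 1).

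**Figure D4:**
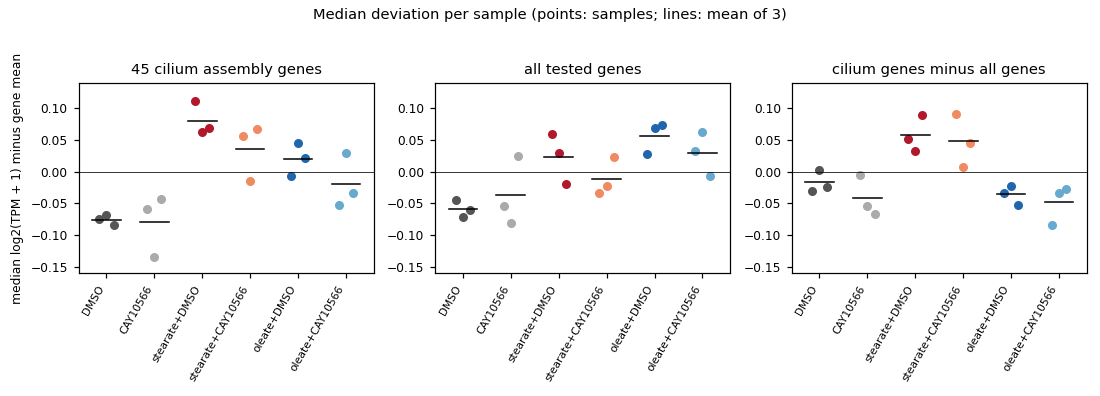
Median of log2(TPM + 1) minus the gene mean in each sample (vertical axes), over the 45 cilium genes, over all tested genes, and the former minus the latter. Points are samples and lines the means of 3. The 6 stearate samples lie from 0.007 to 0.091 in the right panel, the 6 controls from -0.067 to 0.003 and the 6 oleate samples from -0.084 to -0.022.

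Per sample, the median over the 45 genes lay from -0.135 to -0.043 in the controls, from -0.014 to 0.111 with stearate and from -0.052 to 0.046 with oleate, relative to each gene's mean. The summed level of the 45 genes was 574.9 to 605.7 TPM in the controls, 619.7 to 684.6 TPM with stearate and 594.8 to 662.8 TPM with oleate. The stearate samples thus lay above every control both in the summed level and in the median. These ranges describe the samples of the comparisons above and are not a further test.

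CAY10566 against DMSO compared 9 samples with 9, with the fatty acid as a covariate. Of the 45 genes 0 were called, as were 0 of all tested genes (0%), although 9 of the 45 (20%) had an unadjusted p under 0.05, against 5.42% of all tested genes. Of these 9, 7 were lower with CAY10566 (IFT20, IFT27, IFT52, IFT43, BBS5, TCTN2 and CEP83) and 2 higher (CEP290 and CPLANE1). CEP290, the large linker of the transition zone, had the smallest p among the 45, with a log2 difference of 0.23 (95% interval 0.09 to 0.38, unadjusted p = 0.00349, adjusted p = 0.777). IFT27 differed by -0.14 (95% interval -0.24 to -0.04, adjusted p = 0.85). None of these differences passed the correction.

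The interaction asks whether CAY10566 changed the response to a fatty acid. For stearate, 0 of the 45 genes and 1 of all tested genes (0.00725%) passed. An unadjusted p under 0.05 was seen for 2 of the 45 (4.44%), against 9.36% of all tested genes. The 2 were IFT22 (-0.19 on the log2 scale) and IFT80 (-0.28). For oleate 0 of the 45 and 0 of all tested genes (0%) passed. Of all tested genes 10.3% had an unadjusted p under 0.05, as did 4 of the 45 (8.89%). These 4 were DYNC2H1 (0.74, 95% interval 0.22 to 1.26, adjusted p = 0.449), CEP83 (-0.31, -0.54 to -0.09, adjusted p = 0.449), TCTN2 (-0.30, adjusted p = 0.465) and TTBK2 (-0.66, adjusted p = 0.465). With 3 samples a condition the intervals are wide: that of KIF3B for stearate ran from -0.42 to 0.04 and that of BBS4 from -0.28 to 0.17. In the DMSO samples alone 4 of the 45 were called higher with stearate (IFT80, IFT122, KIF3B and BBS4), a share below that of all tested genes, of which 12% were higher and 3.69% lower. In the CAY10566 samples alone 0 were, where 0.529% of all tested genes were called higher and 1.24% lower.

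Genes beside the 45 were examined as lists written by hand, and directions in them depended on scaling. Of 57 further cilium assembly genes 54 were tested, and 10 were higher (18.5%) and 0 lower with stearate against control, with a median of 0.088, against 13.5% higher, 5.97% lower and a median of 0.06 for all tested genes. IFT56, an IFT-B subunit, rose from 7.02 ± 0.914 to 9.67 ± 0.975 TPM (SD, n = 6; log2 fold change 0.41, adjusted p = 0.000776 from limma), the ciliary kinase gene CILK1 by 0.39 (adjusted p = 0.00164) and the planar polarity effector INTU by 0.32 (adjusted p = 0.0119). IFT56 and CILK1 stayed higher in both scaling alternatives. After rescaling by size factors 5 of the list were higher and 1 lower, against 7.92% and 10.2% of all tested genes. After removal of length and GC trends 2 were higher and 1 lower (7.69% and 10.3%). With oleate 10 of the 54 were higher (18.5%, below the 23% of all tested genes) and 1 lower. This became 2 and 2 after rescaling (all tested genes: 9.07% and 9.12%) and 0 and 2 after removal of the trends (5.5% and 6.31%). Between the fatty acids 3 were higher with stearate and 2 lower (5.56% and 3.7%), against 6.85% and 14.3% of all tested genes. The counts became 7 and 2 after rescaling (10.4% and 11.5%) and 7 and 0 after removal of the trends (10.7% and 12.1%). Of 12 genes for cilium disassembly 11 were tested, and 2 were higher with oleate (KIF24 and KIF2A; 18.2%, below the 23% of all tested genes). With stearate, KIF24 was higher by 0.21 (adjusted p = 0.0359) and TTK by 0.14 (adjusted p = 0.0459). After rescaling, neither was called with stearate and AURKA was lower (all tested genes: 10.2% lower). With oleate 0 of the list were then higher and PLK1 was lower (9.07% and 9.12%). After removal of length and GC trends neither KIF24 nor TTK was called with stearate and KIF2A was lower (all tested genes: 10.3% lower). With oleate 0 of the list were higher in that fit and PLK1 was lower (5.5% and 6.31%). AURKA, the kinase that starts disassembly, averaged 104 TPM and differed by -0.04 with stearate as deposited (adjusted p = 0.498).

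Most of the Hedgehog pathway was near 0 in these cells: 5 of 18 genes were tested, and the transducer SMO averaged 0.196 TPM, the effector GLI1 0.624 TPM and the ligand SHH 0.539 TPM. With stearate 0 of the 5 were called (1 at an unadjusted p under 0.05), against 13.5% of all tested genes called higher. With oleate 3 of the 5 were higher, against 23% of all tested genes: PTCH1 by 0.63 (adjusted p = 0.0164), KIF7 by 0.28 (adjusted p = 0.0227) and CDON by 0.33 (adjusted p = 0.0411). PTCH1 alone was called after rescaling, and 0 were after removal of length and GC trends. Of the RFX and other ciliary transcription factors 9 of 16 were tested, 0 were called with stearate (2 at an unadjusted p under 0.05) and 1, RFX7, was higher with oleate (0.34, adjusted p = 0.0256; 11.1% of the list, below the 23% of all tested genes), a call lost after rescaling. With stearate against control, E2F4 and E2F5 were called lower after rescaling, and E2F5 also after removal of length and GC trends. Between the fatty acids CCNO was higher with stearate (11.1% of the list) and E2F5 lower (11.1%), against 6.85% and 14.3% of all tested genes. CCNO was called higher in both scaling alternatives as well, and E2F5 was called in neither. RFX3, a known activator of ciliary genes, averaged 5.44 TPM and differed by 0.17 with stearate (adjusted p = 0.359). FOXJ1, the master factor of motile cilia, averaged 0.124 TPM, and 6 of 16 motile cilia genes were tested, of which PIERCE1 was lower with stearate (-0.34, adjusted p = 0.0262), a call lost after removal of length and GC trends, and 0 were called with oleate (0 at an unadjusted p under 0.05).

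Since cilia are lost in dividing cells, proliferation genes were examined in the same samples. All 15 were tested: 5 were higher and 1 lower with stearate (33.3% and 6.67%, median 0.095), against 13.5% and 5.97% of all tested genes, and 7 were higher and 0 lower with oleate (46.7% and 0%, median 0.149), against 23% and 2.7%. After rescaling these were 4 and 2 with stearate (all tested genes: 7.92% and 10.2%) and 2 and 0 with oleate (9.07% and 9.12%). After removal of length and GC trends they were 4 and 3 with stearate (7.69% and 10.3%) and 3 and 0 with oleate (5.5% and 6.31%). Between the fatty acids 2 were higher with stearate and 3 lower (13.3% and 20%), against 6.85% and 14.3% of all tested genes. The 3 lower were TOP2A, CCNB1 and MCM2. CCNE2 rose by 0.67 (adjusted p = 0.00142) and PCNA by 0.27 (adjusted p = 0.000348) with stearate, while MKI67 differed by 0.13 (adjusted p = 0.34). CCNB1 was the gene called lower with stearate against control, also in both scaling alternatives, where CDK1 was lower as well. The part of proliferation in the changes of the cilium genes was not tested. Of the 9 carcinoma markers 7 were tested, with KRT7, KRT8 and KRT18 lower with stearate (-0.35, -0.24 and -0.44; 42.9% of the list, against 5.97% of all tested genes) and KRT18 lower with oleate (-0.16, adjusted p = 0.00923). Between the fatty acids 4 of the 7 were lower with stearate (KRT7, KRT8, KRT18 and CDH1), against 14.3% of all tested genes. Of the 8 markers of other cell types 3 were tested and 0 were called in either comparison with the controls, with 1 and 2 at an unadjusted p under 0.05. CD68 was lower with stearate than with oleate (-0.27, adjusted p = 0.00245), also in both scaling alternatives, and was called lower with stearate against control after rescaling.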

How the data were processed

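RNA-seq covered 18 OVCAR5 samples, 3 for each of 6 conditions read from the sample labels. The authors trimmed reads with Trim Galore, aligned them with STAR 2.7.1a to GRCh38 and quantified genes with RSEM. The deposited values are TPM per gene, which sum to the same total in every sample and keep no read depth. A line that names no gene was left out (1 line). Symbols, coordinates (GRCh38), lengths and GC content (of the longest transcript) came from GENCODE release 44. The 13789 genes whose mean reached 1 TPM were tested on the log2(TPM + 1) scale with limma 3.58.1 in R 4.3.3 (moderated variances with an intensity trend, Benjamini-Hochberg adjustment over all of them), after checks on simulated data. Fatty acids were compared in 3 groups of 6, CAY10566 with the fatty acid as a covariate, and interactions in a model of 6 conditions. The members and lists were chosen with earlier results of these data known. Named genes were, per complex, the 2 with the smallest adjusted p for stearate against control and 1 each for the other fatty acid comparisons, given in full. Other members were given by level, fold change or count, and at most 3 genes of each other list were taken by smallest adjusted p; further genes of those lists were named after their values were seen. A result for 1 gene of another list is not reported here. Alternatives were a pseudocount of 0.1, other filters on TPM, no trend, rescaling by size factors, a block for replicate number, leaving out each sample, removal of length and GC trends (splines with 3 degrees of freedom), and CAY10566 as a covariate or split out. Figures used matplotlib 3.10.9 in Python 3.11.15.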

Additional observations from a re-analysis of the deposited data

Results flagged for a closer look

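In each of the 3 groups of 6 samples, a sample was singled out where its gap to the nearest other sample was large against the range of the group (Dixon's test). Over 138 such groups, 10 samples stood apart, and chance alone singles out about 1 in 20.

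KIF3B measured 24.3 TPM in CAY10566 replicate 3, where the other controls measured 18.1 to 20 TPM, and TTBK2 measured 5.18 TPM in the same library, where the others measured 2.16 to 2.65 TPM. This is the control library that also stood apart in its median over all genes and in its slope on transcript length. Among the other controls, BBS2 measured 22.3 TPM in DMSO replicate 2, against 16.1 to 18.2 TPM.

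With stearate, BBS7 measured 42.3 TPM in stearate+CAY10566 replicate 3, against 27.2 to 32.4 TPM in the others. KIFAP3 measured 9.2 TPM in stearate+CAY10566 replicate 2, against 10.9 to 12 TPM. IFT80 measured 31.1 TPM in stearate+DMSO replicate 1, against 26.4 to 28.1 TPM, and IFT140 measured 7 TPM in stearate+DMSO replicate 2, against 4.11 to 4.98 TPM.

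With oleate, BBS4 measured 22.3 TPM in oleate+CAY10566 replicate 1, against 24.8 to 26.1 TPM. IFT57 measured 24 TPM in oleate+CAY10566 replicate 3, against 29.3 to 31.4 TPM, and BBS5 measured 2.25 TPM in oleate+DMSO replicate 2, against at most 1.56 TPM.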

How the results depend on the processing

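In this paragraph, each pair of percentages is the share of all tested genes called higher and lower in the same fit. For stearate against control the count of 14 cilium genes called (13.5%, 5.97%) was 7 without a filter on TPM, 6 higher and 1 lower (4.26%, 2.16%). After rescaling by size factors it was 9 (7.92%, 10.2%), and after removal of length and GC trends 8 (7.69%, 10.3%). In the DMSO samples alone it was 4 (12%, 3.69%) and in the CAY10566 samples alone 0 (0.529%, 1.24%). With 1 sample left out it ran from 7 to 16 (9.29% to 20.3%, 5.09% to 6.53%). For oleate against control the count of 6 (23%, 2.7%) was 3 without a filter (7.39%, 0.8%) and 2 after removal of length and GC trends (5.5%, 6.31%). It was 0 in the CAY10566 samples alone (0%, 0.029%). With 1 sample left out it ran from 3 to 10 (16.1% to 30.1%, 1.77% to 4.11%). For stearate against oleate the count of 5 (6.85%, 14.3%) was 2 without a filter (2.32%, 5.06%). It was 10 after rescaling (10.4%, 11.5%) and 10 after removal of length and GC trends (10.7%, 12.1%). With CAY10566 as a covariate it was 8, 7 higher and 1 lower (6.79%, 14%). In the DMSO samples alone it was 3, 2 higher and 1 lower (3.56%, 6.85%), and in the CAY10566 samples alone 0 (0.827%, 2.86%). With 1 sample left out it ran from 2 to 7 (5.29% to 7.85%, 11.1% to 17.2%). Fits without a filter tested 30753 genes and single-drug fits used 3 samples a group. The median of the cilium genes minus that of all genes was 0.107 for stearate against control, and 0.156 without a filter, 0.055 after removal of length and GC trends and 0.151 in the CAY10566 samples alone, with 0.089 to 0.132 when 1 sample was left out. For oleate against control it was 0.008, and 0.072 without a filter and -0.023 in the DMSO samples alone, with -0.023 to 0.02 when 1 sample was left out. For stearate against oleate it was 0.081, and 0.124 in the CAY10566 samples alone, with 0.081 to 0.136 when 1 sample was left out. RPGRIP1L with oleate changed sign to -0.05 after removal of length and GC trends. Where no construction is named, the cause was not tested. The counts for CAY10566 and its interactions were 0 under each alternative run.

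Samples that share a replicate number did not deviate together: over 45 pairs the correlation of deviations ran from -0.18 to 0.103, with a median of 0.012, and 5 of 18 samples correlated best with their own number. With the replicate number as a block the counts were 14, 7 and 5 for the comparisons in the order above, the gene added with oleate being IFT74 (lower). In those fits 12.4%, 21.6% and 6.44% of all tested genes were higher and 5.72%, 2.6% and 13.7% lower.

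TPM keep no read depth, so counting error of scarce genes such as BBS5 and CPLANE1 is unknown.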
